A study of Mus musculus with 2 samples.

Results

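Ccl2, Ccl7, Ccl8 and Ccl12 are the mouse chemokine genes whose proteins bind the receptor CCR2, and they are described here together with Ccr2 itself and with Ccl24, a chemokine gene that marked one of the same monocyte states. They are 6 of the 27998 genes in the feature table and were taken by symbol. All 6 were found, and all 6 had UMIs (unique molecular identifiers, each standing for 1 captured RNA molecule) in both libraries. The set was chosen by levels measured in these same 2 libraries, so every difference between the libraries below is a description and carries no test. Live cells bearing CD45 were sorted from tumors of B16F10, a melanoma line, grown under the skin of C57BL/6 mice for 14 days. The control mice were Usp18f/f, and the others were Usp18f/f LysM-Cre, so mice of both groups carried floxed Usp18 alleles. LysM-Cre expresses the recombinase from the Lyz2 locus, which is active in monocytes, macrophages and neutrophils. The study asked how a myeloid knockout of Usp18, a protease that takes ISG15 off proteins and dampens signalling from the interferon receptor, changes the immune cells of a tumor. Tumors of each group, 4 in number, were pooled into 1 library, so no difference between the groups has a replicate check, and intervals cover counting error only.

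CCR2 is the receptor through which inflammatory monocytes leave the bone marrow and enter inflamed tissue and tumors. Its ligands are made by many cells, macrophages and monocytes among them, so a tumor's phagocytes can both follow these chemokines and release them. CCL24 (eotaxin-2) binds a different receptor, CCR3, which is known from eosinophils, and is made by macrophages in settings of type 2 immunity.

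The control library held 7754 barcodes and 43412346 UMIs, and the other held 6063 barcodes and 48167632 UMIs. After filtering, 6627 and 5440 cells were kept, and 5 of the kept barcode sequences occurred in both libraries. Usp18 went against the label: it stood at 18.3 CPM (UMIs per 1000000 UMIs of the class) in control mononuclear phagocytes and at 97.8 CPM in the library labelled knockout, the name used from here on. Counting of 3' ends may read transcripts whose deleted part lies elsewhere in the gene, so this value does not check the deletion. Lyz2, the locus of Cre, stood at 9200 and 17.2 CPM. Mononuclear phagocytes are the cells of 3 macrophage-like and 4 monocyte-like clusters, named from marker genes, numbering 1779 in control and 2596 in the library labelled knockout, at median depths of 6676 and 5943.5 UMIs. All 11 macrophage markers and all 10 monocyte markers were detected in them in both libraries. Summed marker levels of other cells there, in control and then the library labelled knockout, were 19.5 and 34.8 CPM for T cells, 5.52 and 11.3 CPM for NK cells, and 79.0 and 92.2 CPM for melanoma. They were 986 and 915 CPM for cDC2, 578 and 539 CPM for cDC1, 175 and 83.8 CPM for neutrophils, and 131 and 130.2 CPM for pDC. The fibroblast markers Col1a1, Col1a2, Dcn, Pdgfra and Lum were at 0 in both. Erythroid markers stood at 1.06 and 234 CPM. The part of these other cells in the results was not tested.

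The 4 ligand genes lie within 81229 bases of chromosome 11 on the plus strand (GRCm38, annotated by GENCODE M21): Ccl2 (ENSMUSG00000035385) at chr11:82035571-82037453, Ccl7 (ENSMUSG00000035373) at chr11:82045712-82047525, Ccl12 (ENSMUSG00000035352) at chr11:82101845-82103400 and Ccl8 (ENSMUSG00000009185) at chr11:82115185-82116799. Ccl11, the gene of eotaxin-1, lies between Ccl7 and Ccl12 and had 1 UMI in control mononuclear phagocytes and 0 in those of the library labelled knockout. Ccl2 also lies inside the span of Gm17268, which is on the minus strand, and the sources used here do not state whether counting used the strand. Ccr2 (ENSMUSG00000049103) is at chr9:124101950-124113557 on the plus strand. Ccl24 (ENSMUSG00000004814) is on another chromosome than the 4 ligand genes, at chr5:135569937-135573049 on the minus strand. The annotated transcripts of the 6 genes shared no stretch of 31 bases in any of 15 pairs. Only Ccl2 and Ccl7 shared stretches of 20 bases, 4 in number, so reads of the ligand genes could be told apart over nearly all of their length.

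All 4 ligand genes were almost confined to mononuclear phagocytes and stood higher in those of the library labelled knockout. Ccl24 was at a like level in both, but it rests on few cells. Its direction turned under 4 of 16 other choices of processing or cells. Over all phagocytes, Ccr2 was lower in UMIs per 1000000, but not with every cell thinned to equal depth. These differences were unequal in cells of female and of male mice, with a log2 ratio of 1.76 and 0.08 for Ccl2. Ccl2, the main chemokine for monocytes, was at 1372 CPM (95% Poisson interval 1353 to 1392) in control and 2905 CPM (2881 to 2928) in the library labelled knockout, 2.12-fold higher. Ccl7, which also binds other receptors, was at 521 CPM (509 to 533) and 1618 CPM (1600 to 1635), 3.11-fold higher.

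Ccl12, a mouse gene related to human CCL2, was at 226 CPM (218 to 234) and 757 CPM (746 to 769), 3.35-fold higher. Ccl8 was at 88.1 CPM (83.3 to 93.1) and 329 CPM (321 to 336), 3.73-fold higher. The level of every ligand in the library labelled knockout lay above the counting interval of the control level. Ccl24 was at 106 CPM (100 to 111) and 111 CPM (107 to 116), and Ccr2 was at 901 CPM (885 to 916) and 702 CPM (691 to 714), so Ccr2 was 1.28-fold higher in control.

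On the scale of log2 of (CPM + 5) over (CPM + 5), the library labelled knockout over control, the values were 1.08 for Ccl2, 1.63 for Ccl7, 1.72 for Ccl12, 1.84 for Ccl8, 0.07 for Ccl24 and -0.36 for Ccr2. A ratio of at least 1 was reached by 4 of the 6 genes, against 0.993% of the 11781 genes measured in these cells, and a ratio of -1 or less by 0 of 6, against 0.0934%. With each library clustered on its own, which named 1782 and 1656 cells, Ccl2 was at 0.46 and Ccl7 at 0.69, so that only Ccl8 (1.63) and Ccl12 (1.18) reached 1. Among cells with Y-linked but no Xist UMIs, only Ccl12 did, at 1.11. The median over all measured genes was -0.02. Because the set was chosen by these levels, nothing is read from its count against the share of all genes.

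Depth differed between cells, so each cell was also thinned to 1000 UMIs, which left out 56 cells of control and 251 of the library labelled knockout. A UMI of Ccl2 was then found in 37.8% of control cells and 60.3% of cells in the library labelled knockout (64.3% and 79.5% without thinning). For Ccl7 the thinned shares were 17.2% and 40.5%, for Ccl12 8.42% and 24.6%, and for Ccl8 4.00% and 9.85%. Ccl24 was found in 3.19% and 4.73%. Ccr2 was found in 48.1% (exact binomial 95% interval 45.7 to 50.4) and 47.4% (45.3 to 49.4), and its log2 ratio in thinned cells was -0.047. Over all phagocytes its lower level was thus not seen at equal depth. By class, its thinned share in the library labelled knockout minus that in control was -4.75 percentage points in macrophage-like cells. In monocyte-like cells the difference was 3.10 points.

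Nearly all ligand UMIs lay in these cells. Of all Ccl2 UMIs in kept cells, 98.2% in control and 98.3% in the library labelled knockout were in mononuclear phagocytes, and for Ccl7, Ccl12, Ccl8 and Ccl24 the share ran from 97.1% to 99.7%. B-cell-like cells, which should lack these genes, give the background: 1.04% and 3.76% of thinned cells held a Ccl2 UMI, 0.74% and 1.88% a Ccl7 UMI, 0.67% and 0.71% a Ccl12 UMI, and 0.44% and 1.65% a Ccl8 UMI. Their median depths were 1484.5 and 1760 UMIs. For Ccl2, T-cell-like cells were at 0.98% and 3.39%, and NK-cell-like cells at 1.53% and 4.41%.

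Among conventional dendritic cells of the cDC1-like class, Ccl2 was at 41.3 and 126 CPM, but 118 of the 172 UMIs in the library labelled knockout came from 1 cell, and 52 of the 53 Ccl8 UMIs came from 1 cell. Migratory-DC-like cells had Ccl12 at 0 UMIs in control and at 29.0 CPM in the other library, at least 8.06-fold higher against a floor of 3 UMIs, but 24 of the 33 UMIs came from 1 cell. Ccl2 in the cDC2-like cells of the library labelled knockout was spread wider, with 153 UMIs in 54 cells. The shallow melanoma-like cluster 21 had Ccl2 at 251 CPM there, with 76 UMIs in 54 cells, and 15.3% of its thinned cells held a UMI. In the other melanoma-like cluster, 16, 204 UMIs lay in 63 cells, 69 of them in 1 cell.

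**Figure D1:**
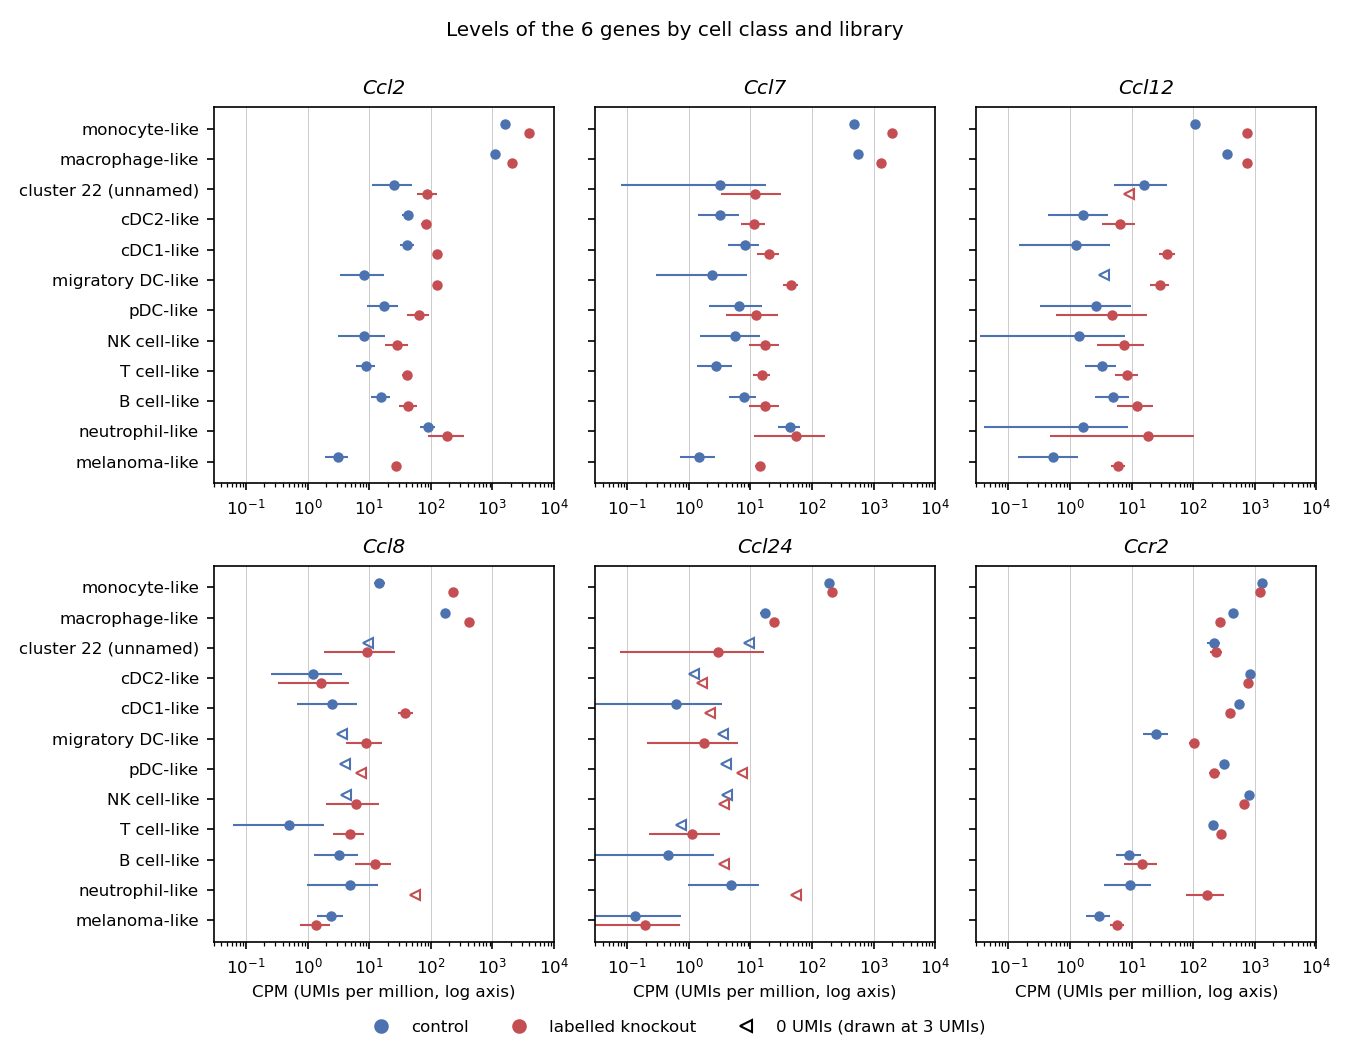
CPM of each gene (log axis) in 12 cell classes of the control library (blue) and the library labelled knockout (red), with 95% Poisson intervals; open triangles mark classes with 0 UMIs, drawn at the level of 3 UMIs. The ligands stand apart in the monocyte-like and macrophage-like rows, where Ccl2 reached 3913 and 2064 CPM in the library labelled knockout, while Ccr2 also stood high in NK-cell-like and dendritic classes.

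Within the phagocytes, the ligands differed in whether monocyte-like or macrophage-like cells held the higher level. In the 1137 monocyte-like cells of control and the 1480 of the library labelled knockout, Ccl2 was at 1600 and 3913 CPM and Ccl7 at 489 and 2006 CPM. In the 642 and 1116 macrophage-like cells, Ccl2 was at 1121 and 2064 CPM and Ccl7 at 556 and 1295 CPM. Ccl2 was thus higher in monocyte-like cells in both libraries, whereas Ccl7 was higher in macrophage-like cells of control only.

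Ccl12 and Ccl8 were macrophage genes in the control library. Ccl12 was at 356 CPM in macrophage-like and 107 CPM in monocyte-like control cells, and at 760 and 754 CPM in those of the library labelled knockout, where the levels of both classes lay within each other's counting intervals. Ccl8 was at 169 CPM in macrophage-like and 14.7 CPM in monocyte-like control cells, and at 411 and 229 CPM in the library labelled knockout. The monocyte-like cells of control held 109 Ccl8 UMIs in 10 cells, and 64 of them (58.7%) came from 1 cell, so the 15.6-fold difference there has a base of few cells.

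Among monocyte-like cells, ratios of at least 1 on the log2 scale were found for all 4 ligands (1.29 for Ccl2, 2.03 for Ccl7, 2.76 for Ccl12 and 3.57 for Ccl8), against 1.85% of 10695 measured genes, and of -1 or less for 0 of the 6 genes, against 0.15%. In macrophage-like cells they were found for 3 of the 6 genes (1.21 for Ccl7, 1.08 for Ccl12 and 1.26 for Ccl8), against 0.488% of 11059 genes, with Ccl2 just under the limit at 0.88, and of -1 or less for 0 of 6, against 0.154%. Ccl24 was at 0.20 and 0.41, and Ccr2 at -0.12 and -0.67, in monocyte-like and macrophage-like cells.

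Ccl12 and Ccl8 are the neighbouring pair that stood highest over control in monocyte-like cells. Their start regions are shown because both hold a match to TATAAA near the start. They are the 250 bases before each start in the RefSeq promoter table (GRCm38.p6), Ccl12 at chr11:82101595-82101844 and Ccl8 at chr11:82114935-82115184, plus strand, 5′ to 3′, with the match to TATAAA in capitals.
Ccl12: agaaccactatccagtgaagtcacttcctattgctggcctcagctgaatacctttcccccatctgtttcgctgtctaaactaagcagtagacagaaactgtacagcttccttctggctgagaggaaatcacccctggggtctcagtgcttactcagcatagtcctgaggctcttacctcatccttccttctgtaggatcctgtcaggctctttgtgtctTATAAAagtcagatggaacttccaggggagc
Ccl8: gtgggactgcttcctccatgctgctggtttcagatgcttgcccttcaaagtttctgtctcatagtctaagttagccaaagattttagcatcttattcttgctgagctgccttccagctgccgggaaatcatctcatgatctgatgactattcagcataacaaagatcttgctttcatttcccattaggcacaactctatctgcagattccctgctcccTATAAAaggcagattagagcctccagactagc
The match began 31 bases before the start in Ccl12 and 32 bases before it in Ccl8, on the gene's own strand. TATAAA occurs on either strand in 12.4% of the 32851 start regions of that length in the table. No match to the core of the interferon-stimulated response element, TTCNNNGAA (the gamma-activated site), TGANTCA (the AP-1 site) or the kappa-B consensus was found in the region of either gene, on either strand. Those motifs occur in 2.98%, 7.02%, 6.75% and 7.25% of all start regions. The search covered these letters and these windows only. The table also held a region for Ccr2, with no match to any of the 5 motifs, and none was used for Ccl2, Ccl7 and Ccl24.

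The 7 clusters of mononuclear phagocytes were made without the 6 genes, so that their levels could be compared across states. The 4 monocyte-like clusters were led by Hp, Chil3 and Serpinb10 (cluster 14), by Vcan, Chil3 and Cxcl9 (cluster 2), by Arg1, Mmp12, Thbs1 and Spp1 (cluster 4) and by the interferon-induced genes Cxcl10, Slfn4 and Ifit3b (cluster 17). The 3 macrophage-like clusters were led by complement genes such as C1qa (cluster 3), by cell cycle genes such as Mki67 (cluster 13) and by Mrc1 in shallow cells (cluster 12, median 865 and 773 UMIs). Cluster 17 had 10 cells of control and 294 of the library labelled knockout, so its control levels rest on very few cells.

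Cluster 14 held little of any ligand: Ccl2 was at 133 and 293 CPM, Ccl7 at 2.74 and 18.8 CPM, and Ccl12 and Ccl8 at 3 and 1 control UMIs. Ccr2 in the same cells was high, at 1343 and 1389 CPM. In cluster 2, Ccl2 stood above that at 1577 and 2950 CPM while Ccr2 was at its highest of all clusters, 1782 and 1651 CPM.

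Cluster 4, with Arg1 and Mmp12, had Ccl2 at 2212 and 4948 CPM, Ccl7 at 780 and 2542 CPM, and less Ccr2, 662 and 788 CPM. Ccl12 was at 83.1 and 630 CPM there. Ccl8 in cluster 4 had 3 UMIs among 420 cells of control and 490 UMIs among 456 cells of the library labelled knockout. Those 490 UMIs were not spread over all 456 cells. In that library's monocyte-like cells outside cluster 17, all 556 Ccl8 UMIs lay in 59 cells, and the highest cell held 175 (31.5%). Cluster 17 of the library labelled knockout had the highest levels of Ccl2 (5581 CPM), Ccl7 (4001 CPM), Ccl12 (2140 CPM) and Ccl8 (777 CPM) among its clusters. With 11.3% of the phagocytes it held 28.1% of their Ccl12 UMIs, 24.6% of Ccl7, 23.5% of Ccl8 and 19.1% of Ccl2.

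Leaving out cluster 17, which was chosen after its values were seen, monocyte-like cells had Ccl2 at 1588 and 3446 CPM, Ccl7 at 480 and 1446 CPM, Ccl12 at 106 and 366 CPM, and Ccl8 at 14.8 and 75.5 CPM. All 4 stayed higher in the library labelled knockout, and Ccl12 and Ccl8 moved most.

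Across clusters with at least 20 UMIs of the gene over both libraries, the log2 ratio of Ccl2 was above 0 in 7 of 7 and ran from 0.70 in cluster 3 to 1.37 in cluster 13. That of Ccl7 was above 0 in 6 of 6 (1.00 to 2.13) and that of Ccl12 in 6 of 6 (0.63 in cluster 2 to 2.98 in cluster 17). Ccl8 was above 0 in 5 of 6, and the exception was cluster 2, where it was at 28.9 and 17.1 CPM. The control level of cluster 2 includes 1 cell with 64 Ccl8 UMIs, of 109 in all monocyte-like control cells. The sign of that exception therefore rests on 1 cell. Ccl24 was above 0 in 4 of 5, and Ccr2 in 3 of 7. Ccl2, Ccl7 and Ccl12 were therefore higher in the library labelled knockout in each cluster measured, and Ccl8, Ccl24 and Ccr2 were not.

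**Figure D2:**
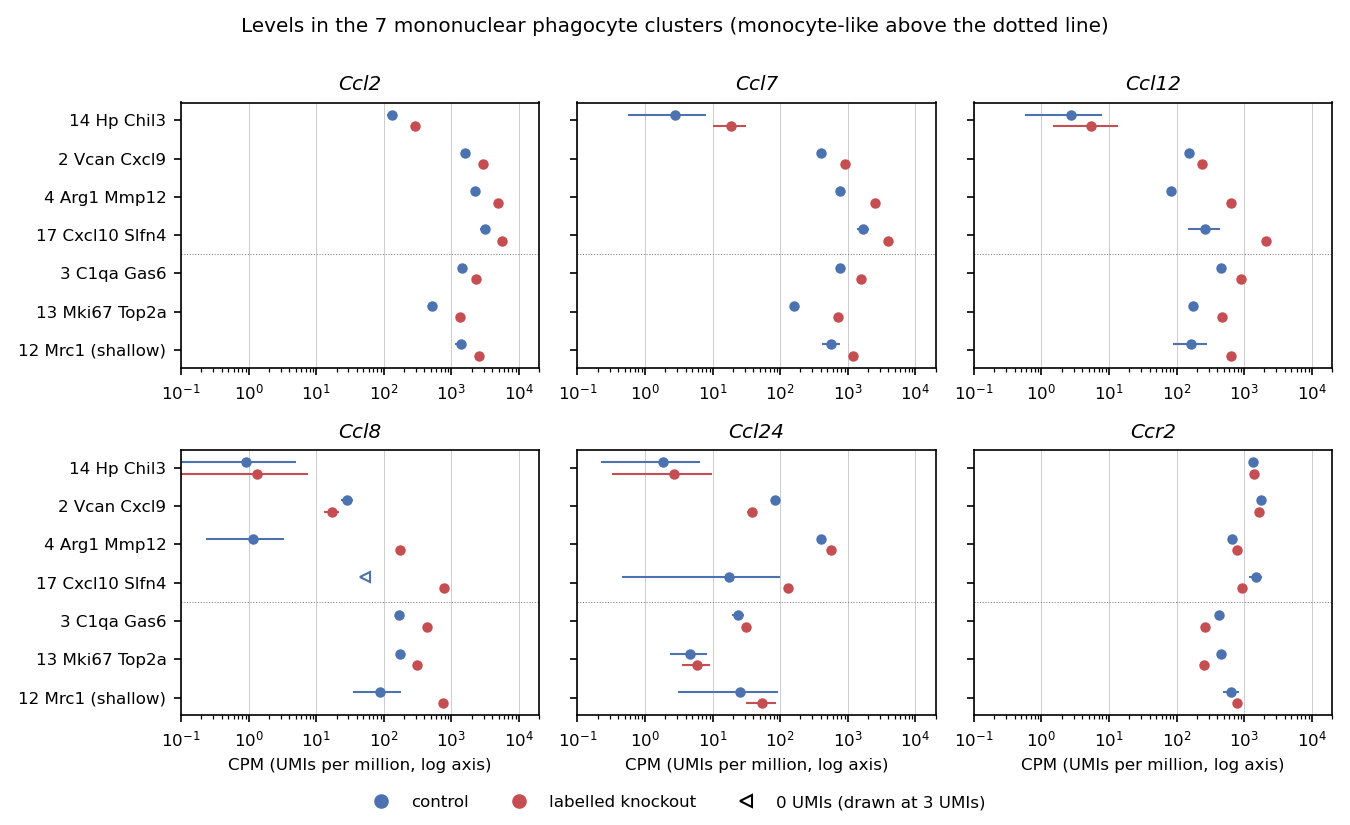
CPM of each gene (log axis) in the 7 mononuclear phagocyte clusters of the control library (blue) and the library labelled knockout (red), with 95% Poisson intervals; cluster numbers stand beside leading genes. Ccl2 lies to the right in the library labelled knockout in every cluster, cluster 14 is low in all ligands but not in Ccr2, and Ccl24 is highest in cluster 4, at 407 and 571 CPM.

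Ccl24 was concentrated in 1 state. Cluster 4 held 71.4% of the phagocytes' Ccl24 UMIs with 23.6% of the cells in control, and 69.8% with 17.6% in the library labelled knockout. Its level there was 407 and 571 CPM, against 85.1 and 38.2 CPM in cluster 2 and 23.9 and 31.4 CPM in cluster 3. Only 7.84% and 13.3% of thinned cluster 4 cells held a Ccl24 UMI, so the state is not a population in which each cell was found with the transcript.

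Ccl24 was also the most concentrated of the 6 transcripts. In control, 7 of 1779 phagocytes held 50% of its 1495 UMIs and 1 cell held 13.6%, and in the library labelled knockout 19 of 2596 held 50% of 2307 UMIs. For Ccl8 it took 17 and 38 cells, for Ccl12 37 and 113, for Ccl7 61 and 162, and for Ccl2 94 and 238. Ccr2 was spread most evenly, with 305 and 391 cells. Without the 1% of cells with most of its UMIs in each library, the log2 ratio of Ccl24 was 0.80 instead of 0.07, so a few cells set how its libraries compare.

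Ccr2 had a wider range of cells than its ligands. Mononuclear phagocytes held 72.7% of its UMIs in control and 77.8% in the library labelled knockout. Monocyte-like cells had the highest class level, 1318 and 1215 CPM. NK-cell-like cells (795 and 660 CPM) and cDC2-like cells (823 and 785 CPM) followed, and in control their intervals of 731 to 862 and 787 to 860 CPM overlapped. Thinned shares in these were 46.7% and 49.0% of NK-cell-like and 45.7% and 48.5% of cDC2-like cells.

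Lower levels came from cDC1-like cells (551 and 403 CPM), macrophage-like cells (441 and 275 CPM), pDC-like cells (313 and 222 CPM) and T-cell-like cells (212 and 288 CPM). Cluster 22, unnamed and led by Adgre4, Ace and Treml4, genes known from nonclassical monocytes, had 219 and 236 CPM, far below the monocyte-like clusters. In the library labelled knockout the intervals of T-cell-like cells (268 to 309 CPM) and macrophage-like cells (265 to 285 CPM) overlapped. B-cell-like cells (9.21 and 14.8 CPM) and melanoma-like cells (2.94 and 5.83 CPM) were near background. Migratory-DC-like cells, at 25.2 and 103 CPM, stood well below the other dendritic classes.

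The T-cell-like class was not uniform for Ccr2, a receptor also known from effector T cells. Its cluster 15, led by Foxp3, Ctla4 and Tnfrsf4, had the most, at 545 and 791 CPM. Clusters 7 and 8 had 261 and 202 CPM and 212 and 309 CPM. Cluster 23 had 31.9 and 112 CPM, and cluster 11 had 20.1 and 15.2 CPM. Macrophage-like and T-cell-like Ccr2 thus ran in opposite directions between the libraries, and that difference was not tested.

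Gates set on genes outside the set were used to compare cells without clusters. Ly6c2, a marker of inflammatory monocytes, was called at 1 UMI or more and C1qa, C1qb and C1qc together at 2 UMIs or more, in thinned cells. In Ly6c2+ C1q- cells (198 in control, 644 in the library labelled knockout) Ccr2 was found in 73.7% and 70.2%, and in Ly6c2- C1q+ cells (670 and 879) in 32.1% and 21.2%. Ccl8 ran the other way, with 0% and 3.57% of Ly6c2+ C1q- cells and 10.0% and 17.4% of Ly6c2- C1q+ cells.

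A wide gap between the libraries was found in Ly6c2+ C1q- cells for Ccl12, at 12.9 and 676 CPM, with 1.01% and 18.6% of thinned cells positive. Ccl2 was found in 27.8% and 57.1% of these cells, and in 42.1% and 62.6% of Ly6c2- C1q+ cells. In control the Ccl2 level was 944 CPM in Ly6c2+ C1q- cells and 1200 CPM in Ly6c2- C1q+ cells, the reverse of the order of the monocyte-like and macrophage-like classes, and in the library labelled knockout it was 3665 and 2274 CPM. Cells negative for both gates, 826 in control and 645 in the library labelled knockout, had Ccl2 at 1690 and 3504 CPM. In control they were the largest group and had the highest Ccl2 level. Cells positive for both gates numbered only 29 in control, against 177 in the library labelled knockout, where 77.4% held Ccl2 and 62.7% Ccl7. Near the gate, 149 and 328 cells had exactly 1 Ly6c2 UMI, and 54 and 92 had exactly 2 C1q UMIs.

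Cells were also split by their summed UMIs of 24 interferon-stimulated genes. In the library labelled knockout, Ccl12 was found in 20.3% of cells with 0 to 2 such UMIs, 22.8% with 3 to 5, 20.9% with 6 to 9 and 41.3% with 10 or more. Ccl2 went from 56.3% to 70.5% and Ccl7 from 36.9% to 51.5% between the lowest and the highest gate. In control only 32 cells fell in the highest gate, and Ccl12 was found in 8.07% of the lowest gate and 9.38% of the highest. Cells of the lowest gate still differed between the libraries, with Ccl2 at 1351 and 2442 CPM, Ccl7 at 517 and 1297 CPM, and Ccl12 at 220 and 561 CPM.

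The ligand transcripts tended to lie in the same cells. In control, Ccl7 was found in 35.1% of thinned cells with Ccl2 and 6.26% of those without, and in the library labelled knockout in 58.0% and 14.0%. The Pearson r over cells of log1p thinned counts was 0.60 over the 1723 of control and 0.64 over the 2345 of the library labelled knockout. These are descriptions, since cells of 1 pool share library and depth. Ccl12 and Ccl7 had r of 0.34 and 0.46, and Ccl12 and Ccl2 0.28 and 0.40.

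In control, Ccl2 was found in 40.6% of cells with Ccl8 and 37.7% without, and Ccl12 in 21.7% and 7.86%. In the library labelled knockout the shares were 75.8% and 58.6%, and Ccl12 was in 50.2% of cells with Ccl8 and 21.8% without. Cells with Ccl8 held Ccr2 less often, in 14.5% against 49.5% in control and in 25.5% against 49.8% in the library labelled knockout. Ccr2 was found in 48.5% of control cells with Ccl2 and 47.8% of those without. In the library labelled knockout the shares were 49.8% (47.2 to 52.5) with Ccl2 and 43.7% (40.5 to 46.9) without, intervals that do not overlap.

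Ccl24 went with Ccl2, which was found in 63.6% of 55 control cells with Ccl24 and 37.0% without, and in 84.7% of 111 cells and 59.0% in the library labelled knockout. None of the 55 control cells with Ccl24 held Ccl8, with an exact binomial upper bound of 6.49%, and in the library labelled knockout 11 of 111 did. Weak correlations, such as 0.16 and 0.13 between Ccl24 and Ccl2, are in sparse counts and are no finding.

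**Figure D3:**
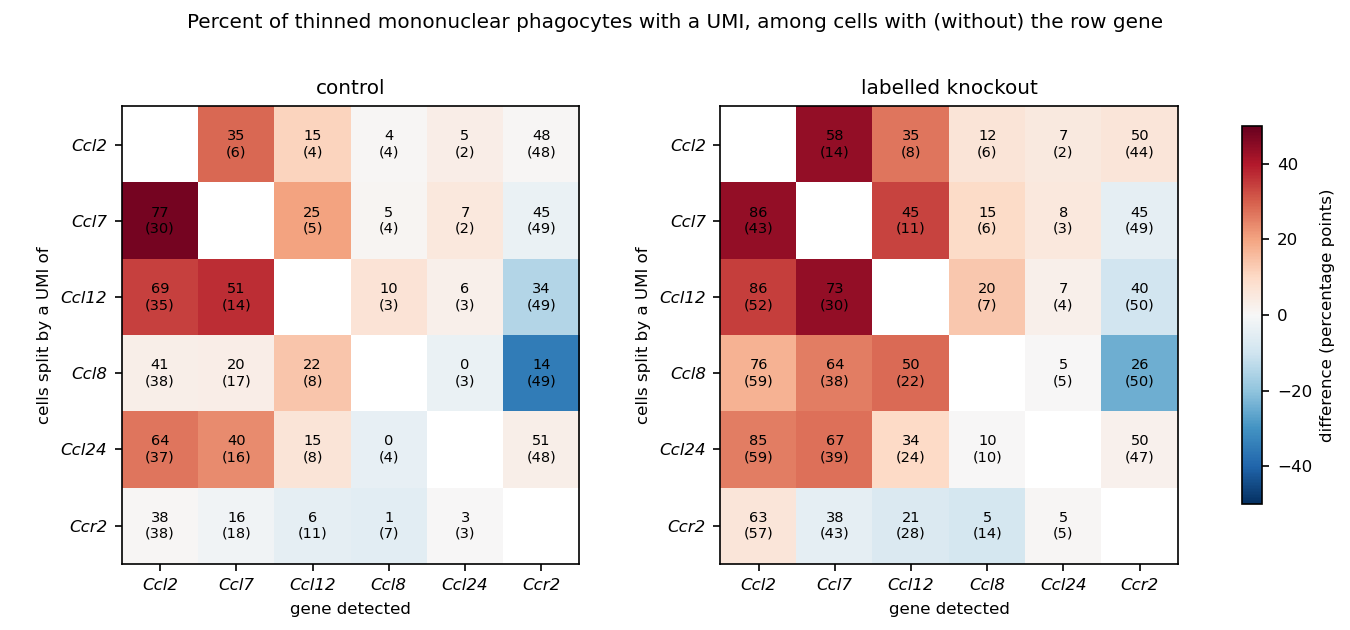
Percent of thinned mononuclear phagocytes with a UMI of the column gene among cells with a UMI of the row gene (in brackets, among cells without), in control (left) and the library labelled knockout (right); color gives the difference in percentage points. In both libraries, Ccl2, Ccl7 and Ccl12 were each found more often in cells with another of these genes than in cells without it. The Ccl8 row is low in Ccr2, at 14.5% and 25.5%.

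Counting the 4 ligand genes per cell, none was held by 54.6% of thinned phagocytes in control and by 31.2% in the library labelled knockout. Cells with 3 of them made up 4.18% (3.28 to 5.23) and 16.8% (15.4 to 18.4), and cells with all 4 made up 0.17% (3 cells) and 3.24% (76 cells). Ccr2 was found in 51.0% of control cells with no ligand gene and 41.7% of those with 3, and in 48.0% and 42.3% in the library labelled knockout, with intervals that overlapped in each library. In its 76 cells with all 4, Ccr2 was found in 28.9% (19.1 to 40.5).

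**Figure D4:**
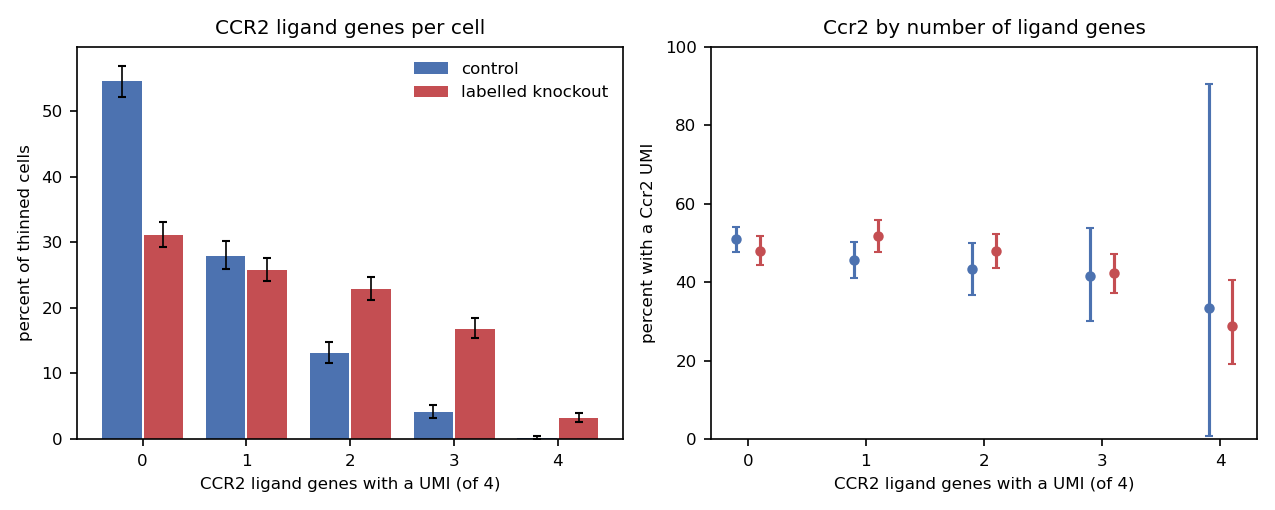
Left, percent of thinned mononuclear phagocytes with UMIs of 0 to 4 CCR2 ligand genes in control (blue) and the library labelled knockout (red); right, percent of those cells with a Ccr2 UMI; bars and points carry exact binomial 95% intervals. Cells without a ligand gene made up 54.6% of control and 31.2% of the library labelled knockout, and the control point at 4 genes rests on 3 cells.

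The pools differed in their shares of cells with Xist and with Y-linked UMIs, and the labels do not give the sex of the mice. The ligand differences were unequal between these kinds of cells. Among mononuclear phagocytes, 413 of control and 1729 of the library labelled knockout had Xist and no Y-linked UMI (Xist-positive cells), and 863 and 326 had the reverse (Y-positive cells). Another 466 and 471 had neither and 37 and 70 had both, and these were left out of the split. Y-positive cells differed little in Ccl2, at 1532 CPM in control and 1622 CPM in the library labelled knockout. Xist-positive cells were at 1008 and 3427 CPM. The log2 ratios of Ccl2 were 1.76 in Xist-positive cells and 0.08 in Y-positive cells.

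The same split gave 2.09 and 0.81 for Ccl7, 1.94 and 1.11 for Ccl12, 3.71 and -0.11 for Ccl8, 1.80 and -1.08 for Ccl24, and 0.29 and -1.66 for Ccr2. Ccl7 and Ccl12 were thus higher in the library labelled knockout in cells of both kinds, and Ccl8, Ccl24 and Ccr2 had opposite signs. None of these differences between the sexes was tested, because each is between single pools, and each kind of cell may come from as few as 1 mouse of a pool.

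The mix of cells moved with this split. Macrophage-like cells made up 37.3% and 37.2% of Xist-positive and Y-positive control cells, but 30.8% and 69.9% in the library labelled knockout. The summed level of the interferon list was 1351 and 1083 CPM in control and 5868 and 1896 CPM in the library labelled knockout, for Xist-positive and Y-positive cells, and cluster 17 held 14.3% and 2.76% of the latter. Their part in the ligand differences was not tested.

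Monocyte-like Y-positive cells, 542 in control and 98 in the library labelled knockout, had Ccl2 at 1853 (1810 to 1896) and 1919 (1811 to 2032) CPM, Ccl7 at 547 and 1014 CPM and Ccl12 at 104 and 298 CPM. The Xist-positive ones, 259 and 1197, had Ccl2 at 1051 and 4209 CPM, Ccl7 at 347 and 2189 CPM and Ccl12 at 33.4 and 832 CPM. Ccl8 had 0 UMIs in the Xist-positive control cells and 228 CPM in those of the library labelled knockout, at least 116-fold higher against a floor of 3 UMIs. Of the 2160 Ccl8 UMIs in all monocyte-like cells of that library, 1604 lay in cluster 17, which had only 10 control cells. The part of cluster 17 in this fold was not tested. In Y-positive cells Ccl8 was at 5.11 and 9.78 CPM, from 20 and 6 UMIs.

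Ccr2 in monocyte-like cells was close in all 4 subsets, at 1133 and 1370 CPM in control and 1200 and 1314 CPM in the library labelled knockout, for Xist-positive and Y-positive cells. In macrophage-like cells it was not: 246 and 514 CPM in control, and 366 and 89.5 CPM in the library labelled knockout. The lower Ccr2 of macrophage-like cells in the whole library labelled knockout was thus found in Y-positive cells, and Xist-positive cells were higher than in control. Macrophage Ccl8 also crossed, at 45.5 and 193 CPM in control and 532 and 108 CPM in the library labelled knockout. Macrophage Ccl2 did not cross, at 965 and 1217 CPM in control and 2410 and 1563 CPM in the library labelled knockout. In Y-positive macrophage-like cells Ccl2 was thus 1.28-fold higher (counting interval 1.23 to 1.34).

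**Figure D5:**
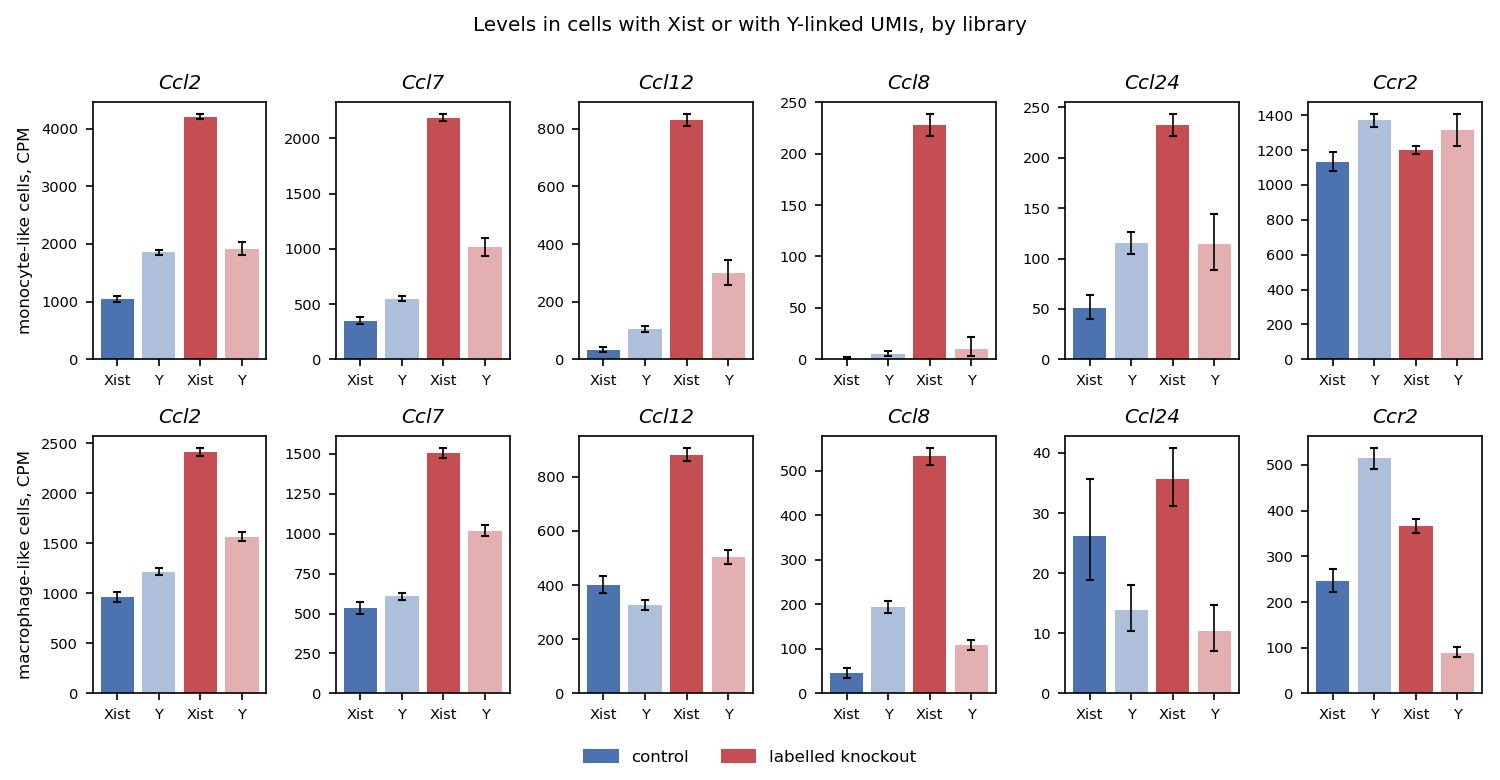
CPM of each gene (linear axes from 0) in monocyte-like (top) and macrophage-like cells (bottom) that were Xist-positive or Y-positive, in control (blue) and the library labelled knockout (red); bars carry 95% Poisson intervals. The Xist-positive cells of the library labelled knockout stand apart for the ligands, such as 4209 CPM for Ccl2 in monocyte-like cells, and macrophage Ccr2 is lowest in its Y-positive cells, at 89.5 CPM.

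Among other genes of the same families, some CC chemokine genes stood further from control than Ccl2, with its log2 ratio of 1.08, and no measured receptor gene did. Of 14 other CC chemokine genes, 9 could be measured in mononuclear phagocytes and 3 had a log2 ratio of at least 1, against the 0.993% of all genes given above, with a median of 0.37. They were Ccl4 (237 and 573 CPM, log2 ratio 1.26) and Ccl5 (41.5 and 107 CPM, 1.27), and Ccl17 (2.12 and 28.5 CPM, 2.24), a ligand of CCR4, for which 292 of the 592 UMIs in the library labelled knockout came from 1 cell. Ccl6 and Ccl9, at 0.22 and 0.34, differed little, and Ccl25 was lowest at -0.19.

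Of 15 other chemokine receptor genes, 8 could be measured and 0 had a ratio of at least 1 or of -1 or less, with a median of 0.21. Cx3cr1, the fractalkine receptor gene of resident macrophages and nonclassical monocytes, was the lowest (281 and 155 CPM, -0.84), and Ccr7 the highest (0.68, at 1.13 and 4.82 CPM). Ccr3, the receptor gene for CCL24, had 24 and 67 UMIs, or 1.70 and 3.23 CPM.

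Genes of monocyte growth and recruitment showed none past these limits, with 12 of 14 measured and a median of 0.00, the lowest being the integrin gene Itga4 at -0.57. Inflammatory NF-kB genes also had 0 of 14 past them, with a median of 0.22, from -0.31 for Cxcl2 to 0.72 for Il6. Of 24 interferon-stimulated genes 22 had a ratio of at least 1, with a median of 1.58. Of the 13 alternative-activation genes measured 1 did (Ccl17), with a median of -0.08.

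Likeness of pattern was taken over 40 points, the levels of 20 clusters in each library, which share library and depth, among 12098 genes. The 5 genes most like Ccl2 were Ccl7 (r = 0.95), C3ar1, Msr1, Fcgr1 and Slc7a8, and those most like Ccl7 were Ccl12 (0.96), Ccl2, C3ar1, Pf4 and C1qb. Ccl12 was most like Ccl7, Pf4, C1qb, C1qc and C3ar1, and Ccl8 most like Ccl12 (0.91), Folr2, C1qc, Mmp27 and Vcam1. The ligands thus had each other and macrophage genes as nearest neighbours. Ccl24 had Flrt2 (0.95), Arg1, Mmp12, Rhov and F7, of which Arg1 and Mmp12 are leading genes of cluster 4, and Ccr2 had Ahnak (0.91), Tln1, S100a6, Pycard and Itgb2.

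Over 4068 thinned phagocytes and 3023 genes, Ccl2 was most like Ccl7 (r = 0.65), Ccl12, Ccl6, Ccl9 and Ctsl, and Ccl7 most like Ccl2, Ccl12, Ccl6, Dab2 and Ccl9. Ccl12 had Ccl7 and Ccl2 and then the interferon-induced genes Isg15, Cxcl10 and Ifit3. Its r with Isg15 was 0.04 in control and 0.26 in the library labelled knockout. Ccl8 had Ccl12, C1qb, C1qa, Ctsb and C1qc, Ccl24 had Ccl6, Ccl9, Fn1, Spp1 and Arg1, and Ccr2 had S100a4, Plac8, S100a6, Ifitm3 and Tgfbi, all with r of 0.31 or less. In such sparse counts these weak values give an order of likeness only.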

How the data were processed

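Live CD45+ cells of both libraries were profiled with 10x Chromium 3' v3 chemistry, per the labels. The authors deposited raw UMI counts per gene and barcode, made with Cell Ranger 3.0.1 on mm10, per the submitters' processing notes. Barcodes were kept from 200 genes upward and up to 10% mitochondrial UMIs, and doublets were removed by neighbour scores at 0.8% per 1000 barcodes (481 and 294). Cells of both libraries were clustered together in Python 3.11.15 with leidenalg 0.10.2 (2000 variable genes, 30 components, 15 neighbours, resolution 1). The 6 genes, the 24 listed interferon-stimulated genes, Usp18, Lyz2 and 871 technical genes were left out of the clustering. Other interferon-induced genes, such as Cxcl10 and Slfn4, were not left out. Clusters were named by markers, so class names mean "like". A cluster led by dendritic genes and Foxp3 was left unnamed by a rule added after its genes were seen.

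Summed UMIs were given as CPM with exact Poisson 95% intervals, and shares with exact Clopper-Pearson intervals. Ratios used a pseudocount of 5 CPM and needed at least 20 UMIs over both libraries. Floors stand for 3 UMIs. Scripts were tested on simulated data. With 1 library per group no test was made. Named genes were the 6 genes, the listed genes that were highest, lowest or past a log2 ratio of 1 or -1, and the 5 genes of most like pattern; Ccl11, Ccr3, Ccl6 and Ccl9 were added as neighbours or relatives. The members and lists were chosen with earlier results of these data known. Alternatives covered filters, clustering, depth, sex, state and single cells.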

Additional observations from a re-analysis of the deposited data

Results flagged for a closer look

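The direction between the libraries was opposite in Xist-positive and Y-positive cells, with a counting interval that excluded 0 in both, for 4 results, and none of these differences was tested. In mononuclear phagocytes, the log2 ratio of Ccl24 was 1.80 in the first and -1.08 in the second. Ccr2 had 0.29 and -1.66 there. The control Ccl24 values of the split rest on 119 and 506 UMIs, of 1495 in all control phagocytes. Most control Ccl24 UMIs thus lay in cells outside the split. In macrophage-like cells, Ccl8 had 3.41 and -0.81, and Ccr2 had 0.56 and -2.46. Other pairs had opposite signs with at least 1 interval that held 0: Ccl8 in mononuclear phagocytes (3.71 and -0.11), Ccl24 in macrophage-like cells (0.38 and -0.29), and in monocyte-like cells Ccl24 (2.08 and -0.01) and Ccr2 (0.08 and -0.06). Each value compares 1 pool with 1 pool.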

How the results depend on the processing

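Log2 ratios in mononuclear phagocytes are given here for each alternative that moved them past their counting interval or turned their sign; the cause was not tested. With cells limited to 5% mitochondrial UMIs they were 1.01 for Ccl2, 1.71 for Ccl7, 2.02 for Ccl8, 1.53 for Ccl12, 0.56 for Ccl24 and -0.61 for Ccr2. Without doublet removal they were 1.58 for Ccl7, 1.72 for Ccl8 and -0.30 for Ccr2. With each library clustered on its own, which named 1782 and 1656 cells, they were 0.46 for Ccl2, 0.69 for Ccl7, 1.63 for Ccl8, 1.18 for Ccl12, -2.25 for Ccl24 and -0.47 for Ccr2. At resolution 2 (1437 and 1899 cells) they were 1.04 for Ccl2, 1.46 for Ccl7, 1.31 for Ccl8, 1.21 for Ccl12, -0.67 for Ccl24 and -0.46 for Ccr2. With each cell classed on its own they were 1.05 for Ccl2, 1.59 for Ccl7, 1.67 for Ccl12 and -0.0092 for Ccl24. With cells thinned they were 1.28 for Ccl2, 1.75 for Ccl7, 2.01 for Ccl8, 2.08 for Ccl12 and -0.047 for Ccr2. Without the 1% of cells with most UMIs of the gene they were 1.20 for Ccl2, 1.77 for Ccl7, 2.08 for Ccl8, 2.04 for Ccl12 and 0.80 for Ccl24. In Xist-positive cells they were 1.76 for Ccl2, 2.09 for Ccl7, 3.71 for Ccl8, 1.94 for Ccl12, 1.80 for Ccl24 and 0.29 for Ccr2. In Y-positive cells they were 0.082 for Ccl2, 0.81 for Ccl7, -0.11 for Ccl8, 1.11 for Ccl12, -1.08 for Ccl24 and -1.66 for Ccr2. In monocyte-like cells they were 1.29 for Ccl2, 2.03 for Ccl7, 3.57 for Ccl8, 2.76 for Ccl12, 0.20 for Ccl24 and -0.12 for Ccr2. In macrophage-like cells they were 0.88 for Ccl2, 1.21 for Ccl7, 1.26 for Ccl8, 1.08 for Ccl12, 0.41 for Ccl24 and -0.67 for Ccr2. Without cluster 17, an alternative chosen after seeing the data, they were 0.93 for Ccl2, 1.38 for Ccl7, 1.60 for Ccl8, 1.40 for Ccl12 and -0.41 for Ccr2. Over 16 alternatives, Ccl2 ran from 0.08 to 1.76, Ccl7 from 0.69 to 2.09 and Ccl12 from 1.08 to 2.76, each above 0 throughout. Ccl8 turned in direction under 1, Ccl24 under 4 and Ccr2 under 1. A pseudocount of 1, removal of 5% free RNA, and 2 alternatives chosen after seeing the data, adding cluster 22 and leaving out cluster 12, did neither for any of the 6. Ccl24 rests on few cells and few UMIs, and its direction is not settled at this depth. No paired analysis was possible because each group has 1 library and the labels give no replicate numbers.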
